A study of Mus musculus with 21 samples.

Results

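The genes described here, 10 in all, belong to the immunoproteasome and to MHC class I antigen processing, and were measured in hematopoietic stem cells (HSCs) from the bone marrow of mice. They were chosen by symbol, and all 10 were found among the 47729 genes of the count table and passed the filter on low counts in both experiments. On the proteasome side these are Psmb8, Psmb9 and Psmb10, the catalytic subunits of the immunoproteasome, and Psme1 and Psme2, the subunits of the activator PA28. On the side of peptide loading and class I molecules they are Tap1, a subunit of the peptide transporter, Tapbp (tapasin), which holds class I molecules at that transporter, B2m, the class I light chain, and H2-K1 and H2-D1, the class I heavy chains.

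Proteasomes cut cytosolic proteins into peptides. The TAP transporter carries those peptides into the endoplasmic reticulum, where they are loaded onto a heavy chain paired with beta-2 microglobulin and shown at the cell surface. In cells exposed to interferon, Psmb8, Psmb9 and Psmb10 take the places of the constitutive catalytic subunits Psmb5, Psmb6 and Psmb7, and hematopoietic cells carry immunoproteasomes without such exposure as well. Bortezomib inhibits proteasomes by binding mainly the Psmb5 site and its immunoproteasome counterpart, the Psmb8 site.

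HSCs were sorted as CD48- LSK CD150+ cells and sequenced as 21 SMART-seq2 libraries in 7 groups of 3. The treatment experiment covers wild-type (WT) and Mx1-Cre;Atg5fl/fl animals, which received retro-orbital injections of 10 mg/kg bortezomib or of 10% DMSO at 48 h and 24 h before analysis. The titles name the second genotype Atg5-/-, one label spells it Mx1-Cre; Atgfl/fl, and it is called knockout-labelled here. Mx1-Cre drives the recombinase from an interferon-inducible promoter. The sources used here give neither the age of the mice nor an inducer of Cre. The reporter experiment used RFP-EGFP-LC3 mice without treatment, whose tagged LC3 marks autophagic vesicles, and their HSCs were sorted as RFP single positive, RFP GFP double positive and double negative. The labels do not say whether libraries of a group came from separate animals, so p-values measure the spread between these libraries, which may be technical.

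Libraries held 15005500 to 31481691 counts and 16095 to 18899 detected genes. Levels are counts per 1000000 (CPM) on library sizes scaled by TMM, with mean ± SD over 3 libraries. A gene was called at an adjusted p under 0.05 in edgeR's quasi-likelihood test with Benjamini-Hochberg adjustment over all genes tested in a comparison (16149 in the treatment and 15375 in the reporter experiment), and "rose" and "fell" are used for calls only. All 12 HSC markers examined were detected in every group, with summed levels of 2113 to 4082 CPM per library. Atg5 stood at 39.9 to 142.5 CPM over the 21 libraries, and counts over the whole gene do not check whether the floxed part was removed. WT DMSO replicate 3, WT bortezomib replicate 3 and knockout-labelled bortezomib replicate 3 stood apart from their groups on the third principal component (scores of -65.2, -38 and -47.6) and are called the 3 outlying libraries. Sex markers differed between groups. Of the counts of Xist and the Y-linked Ddx3y together, Xist made up 60% to 99.2% after DMSO and 31.8% to 90.3% after bortezomib in WT libraries. WT DMSO replicate 3 (60%) and WT bortezomib replicates 1 (46.4%) and 2 (31.8%) held a large part of both markers. Whether such libraries mix animals was not tested. In knockout-labelled libraries Xist made up 0.234% to 0.987% after DMSO, and 100%, 0% and 3.51% after bortezomib.

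Of the 10 genes, 6 lie on chromosome 17, where the mouse MHC is encoded. In GRCm38 coordinates of the GENCODE M21 annotation, Tapbp (chr17:33915899-33929292, plus strand), H2-K1 (chr17:33996017-34000347, minus), Psmb9 (chr17:34181987-34187764, minus), Tap1 (chr17:34187553-34197225, plus), Psmb8 (chr17:34197721-34201454, plus) and H2-D1 (chr17:35262730-35267499, plus) follow in that order. Psme1 (chr14:55578123-55581529, plus) and Psme2 (chr14:55587441-55591113, minus) are neighbours on chromosome 14. Psmb10 (chr8:105935735-105938444, minus) and B2m (chr2:122147686-122153083, plus) lie outside these clusters.

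Promoter sequences are shown for the class I chains, because both heavy chains moved together while their light chain did not pass the test. They are the 250 bases before the RefSeq start (GRCm38.p6), read 5′ to 3′ on the strand of the gene, H2-K1 at chr17:34000348-34000597 (minus strand) and B2m at chr2:122147437-122147686 (plus strand). Capitals mark, on either strand, the IRF element AANNGAAA, the NF-kB consensus, the CCAAT box, the cyclic AMP response element half-site TGACG and the GAS element TTCNNNGAA.
H2-K1: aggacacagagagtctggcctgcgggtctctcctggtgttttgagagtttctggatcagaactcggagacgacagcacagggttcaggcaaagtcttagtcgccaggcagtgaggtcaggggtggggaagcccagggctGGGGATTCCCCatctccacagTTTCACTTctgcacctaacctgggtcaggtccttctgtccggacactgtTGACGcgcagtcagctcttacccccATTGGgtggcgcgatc
B2m: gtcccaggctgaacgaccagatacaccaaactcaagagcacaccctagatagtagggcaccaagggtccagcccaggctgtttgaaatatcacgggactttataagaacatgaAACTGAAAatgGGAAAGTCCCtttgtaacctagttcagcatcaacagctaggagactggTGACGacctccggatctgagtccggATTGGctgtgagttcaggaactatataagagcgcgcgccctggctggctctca

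The H2-K1 and H2-D1 windows were identical at 167 of 190 aligned bases (87.9%). The stretch that holds the NF-kB and IRF letters is set side by side for both heavy chains, H2-K1 at chr17:34000429-34000458 (minus strand) and H2-D1 at chr17:35262923-35262952 (plus strand), with the capitals as above. The capital letters are the same in both genes.
H2-K1 site: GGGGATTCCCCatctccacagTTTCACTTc
H2-D1 site: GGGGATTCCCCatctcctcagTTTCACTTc

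All 10 genes matched a RefSeq window of 300 bases, from 250 before to 50 after the start. The IRF letters were found in 4 of the 10 genes (H2-K1, H2-D1, B2m and Psme1) and in 23.9% of all 32851 windows. The NF-kB consensus was found in 3 (H2-K1, H2-D1 and B2m) and in 8.5% of all windows, and the GAS letters in 1 (Psmb8) and in 8.3%. CCAAT and TGACG were each found in 6 of the 10, against 37.4% and 20.8% of all windows. Tap1 and Psmb9 were both counted there for the same sites, which lie between their starts. The similar H2-K1 and H2-D1 windows were also counted as separate genes, so these counts are not of independent sites. Counts are of genes, some with several windows, while the shares are of windows. No overlap between capitals of different motifs occurs in the sequences shown, and a match of letters is not evidence of binding.

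Tap1 and Psmb9 are transcribed away from each other from starts that lie 225 bases apart in RefSeq (chr17:34187331-34187555). A short stretch is shown for each motif found between the starts, on the plus strand, at chr17:34187331-34187360 (CCAAT, next to the start of Psmb9) and chr17:34187458-34187487 (TGACG), because this is a promoter region shared by genes that moved in opposite directions below.
Tap1 and Psmb9, CCAAT: tttCCAATcagcggctgcgcgcggtgcagg
Tap1 and Psmb9, TGACG: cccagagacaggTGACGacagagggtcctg

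GENCODE M21 annotates longer transcripts of Psmb9 that run over this interval, so that Psmb9 and Tap1 share 212 exonic bases on opposite strands, which is 5.79% of the exonic bases of Psmb9. The sources used here do not give the strand setting of the counting. Psme2 has a near-identical copy, Psme2b, listed at 15.2 to 65.5 CPM, and H2-K1 and H2-D1 resemble H2-Q and H2-T genes, so reads of these families may have been split or dropped. The antisense genes at Psmb8 (Gm20496) and Tapbp (Gm19412) had at most 4 and 8 counts in any library.

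Levels differed widely between the genes. Per kilobase of exonic sequence, WT DMSO libraries held 6139 ± 1133 CPM of B2m, 1021 ± 44.9 of H2-D1 and 827 ± 55.4 of H2-K1 (SD, n = 3). B2m was the highest in the group means of all 7 groups. The order of the heavy chains depended on the length used: per kilobase of the longest annotated transcript, H2-K1 stood at 1296 ± 86.9 and H2-D1 at 1252 ± 55.0 CPM in WT DMSO, so that H2-K1 came first. The proteasome-side genes and Tapbp followed at 185 ± 18.8 CPM per kilobase for Psme1, 172 ± 54.7 for Psme2, 145 ± 25.5 for Psmb10, 140 ± 25.4 for Psmb8 and 137 ± 14.7 for Tapbp. Neighbours among these 5 differed by less than their spread, and their order also changed per kilobase of the longest transcript. Psmb9 at 85.6 ± 14.2 and Tap1 at 45.5 ± 4.54 CPM per kilobase were lower than all of them by either length.

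**Figure D1:**
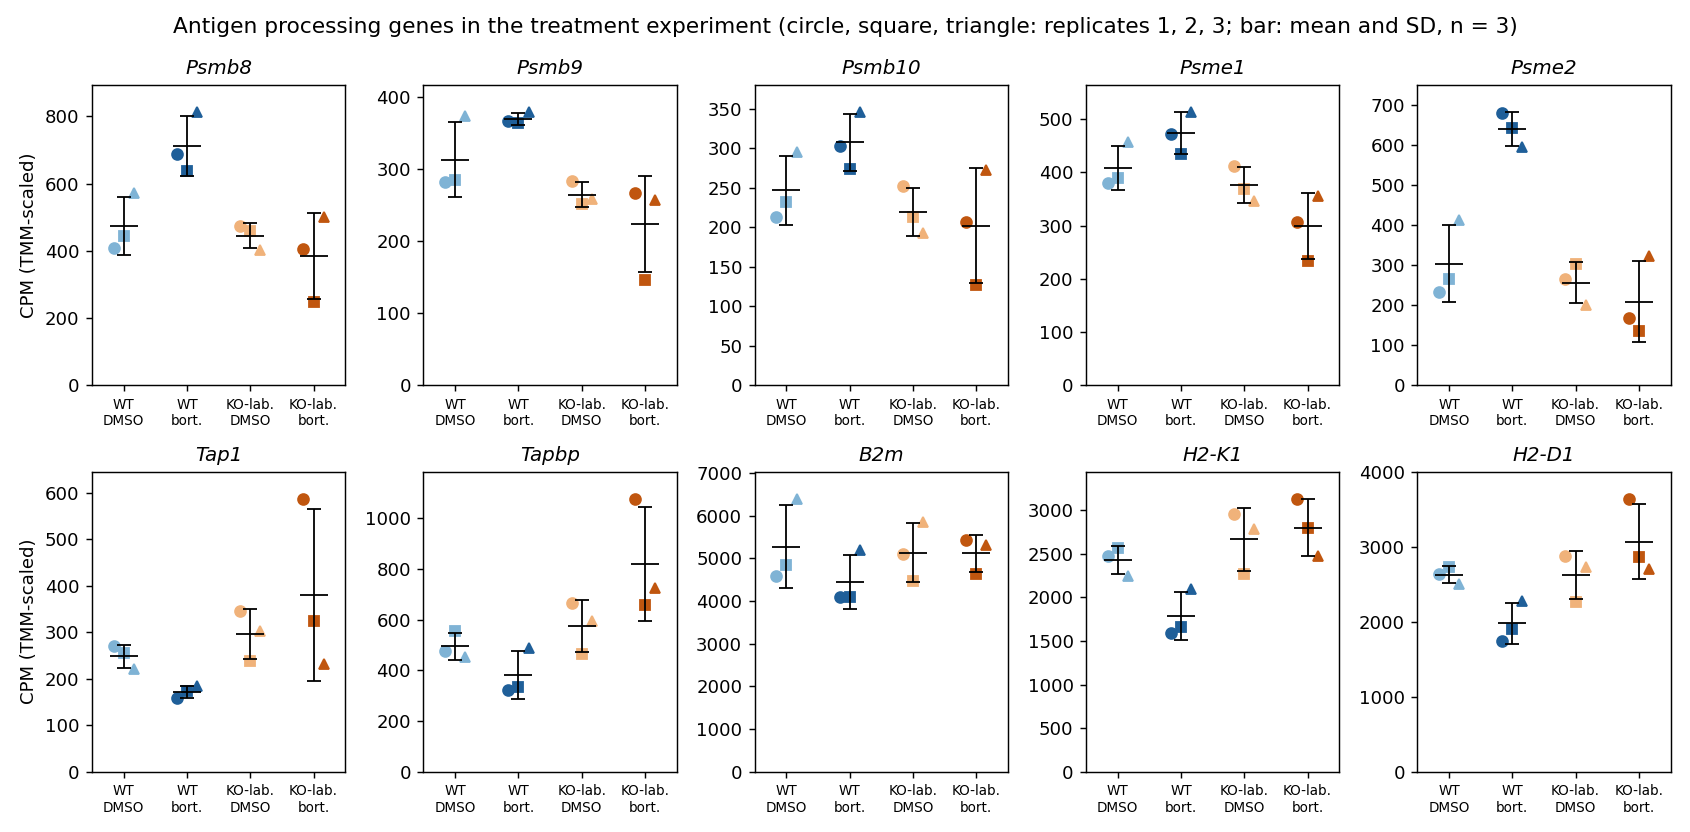
Levels of the 10 genes in the treatment experiment, in CPM on a linear axis from 0, for WT and knockout-labelled (KO-lab.) HSCs after DMSO or bortezomib (bort.); symbols are the 3 libraries and bars the mean and SD. In the upper row the knockout-labelled bortezomib libraries lie below the WT bortezomib libraries for all 5 proteasome-side genes, and in the lower row they lie above them for Tap1, Tapbp, H2-K1 and H2-D1.

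The first comparison was of the genotypes under bortezomib. Proteasome-side genes were lower and loading and heavy chain genes were higher in knockout-labelled than in WT HSCs. In all, 8 of the 10 genes were called, 4 lower and 4 higher, where 32.4% of all genes tested were called (17.2% higher and 15.3% lower). An unadjusted p under 0.05 was reached by 9 of the 10, against 42.1% of all genes tested. The libraries of the groups did not overlap for 9 of the 10, 5 lower and 4 higher, against 44.1% of all genes tested (21.8% lower and 22.3% higher). The median log2 fold change was -0.73 for the 5 proteasome-side genes and 0.65 for the other 5, beside 0.08 for all genes tested.

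Psme2, the beta subunit of PA28, had the largest change. It stood at 681, 641 and 596 CPM in the WT bortezomib libraries and at 166, 134 and 323 CPM in the knockout-labelled ones. All 3 knockout-labelled libraries were below all 3 WT libraries, and replicate 3 was the nearest to WT. The log2 fold change was -1.62 (SE 0.29, edgeR adjusted p = 0.000757). Psme1, the alpha subunit, stood at 473, 434 and 513 CPM in WT and at 307, 234 and 356 CPM in knockout-labelled HSCs after bortezomib. The groups were again apart, with a smaller difference than for Psme2. Psme1 fell by 0.66 on the log2 scale (SE 0.17, edgeR adjusted p = 0.00743).

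The catalytic subunits had the same order of libraries. Psmb8, the immunoproteasome counterpart of Psmb5, stood at 687, 638 and 813 CPM in WT and at 406, 248.7 and 501.4 CPM in knockout-labelled HSCs after bortezomib. No library of one group reached the other, and knockout-labelled replicate 2 was the lowest. Psmb8 fell by 0.89 (log2, SE 0.22, edgeR adjusted p = 0.00612). Psmb9, the counterpart of Psmb6, stood at 367, 364 and 379 CPM in WT and at 267, 146 and 257 CPM in knockout-labelled HSCs. The WT libraries were close together and all above the others. Psmb9 fell by 0.73 (log2, SE 0.20, edgeR adjusted p = 0.0119). Psmb10, the counterpart of Psmb7, stood at 303, 274 and 346 CPM in WT and at 207, 127 and 272 CPM in knockout-labelled HSCs. Its groups did not overlap, but the highest knockout-labelled library was next to the lowest WT library. The log2 difference of -0.61 (SE 0.23) missed the threshold (edgeR adjusted p = 0.0532). It was called in 6 of 14 alternatives, among them the fit without the 3 outlying libraries (-0.82, adjusted p = 0.00416).

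Tap1 stood at 158, 174 and 184 CPM in the WT and at 587, 324 and 231 CPM in the knockout-labelled bortezomib libraries. Knockout-labelled replicate 1, the one of these 3 with a Xist share of 100%, was far above the other libraries. All 3 were above WT. Tap1 rose with a log2 fold change of 1.14 (SE 0.26, edgeR adjusted p = 0.00351), in the direction opposite to its divergent neighbour Psmb9. Tapbp stood at 322, 334 and 489 CPM in WT and at 1077, 660 and 725 CPM in knockout-labelled HSCs. Replicate 1 was again the highest, and the groups were apart. The log2 fold change of Tapbp was 1.105 (SE 0.22, edgeR adjusted p = 0.00144). Zbtb22, which shares 149 exonic bases with Tapbp on the same strand, held 12.1 to 44.7 CPM over the 21 libraries.

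H2-K1 stood at 1594, 1659 and 2101 CPM in the WT and at 3127, 2800 and 2472 CPM in the knockout-labelled bortezomib libraries. The replicates numbered 3 were the nearest to each other, without overlap. H2-K1 rose by 0.65 (log2, SE 0.17, edgeR adjusted p = 0.00745). H2-D1 stood at 1753, 1908 and 2285 CPM in WT and at 3643, 2872 and 2705 CPM in knockout-labelled HSCs, with all knockout-labelled libraries higher. H2-D1 rose by 0.63 (log2, SE 0.17, edgeR adjusted p = 0.00895), a call that was lost without WT bortezomib replicate 1 (adjusted p = 0.0531). B2m stood at 4094, 4090 and 5191 CPM in WT and at 5431, 4631 and 5315 CPM in knockout-labelled HSCs. WT replicate 3 lay within the knockout-labelled range, and the log2 difference was 0.20 (SE 0.17, edgeR adjusted p = 0.413).

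The calls of Psmb8, Psmb9, Psme1, Psme2, Tap1, Tapbp and H2-K1 held in all 14 alternatives run for this comparison, each of which changed one step or left out libraries. Without the 3 outlying libraries, 5 genes were called lower and 4 higher, where 19% of all genes were called lower and 20.3% higher. With the Xist share as a covariate, 4 were called lower and 4 higher (15.6% and 16.7% of all genes).

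**Figure D2:**
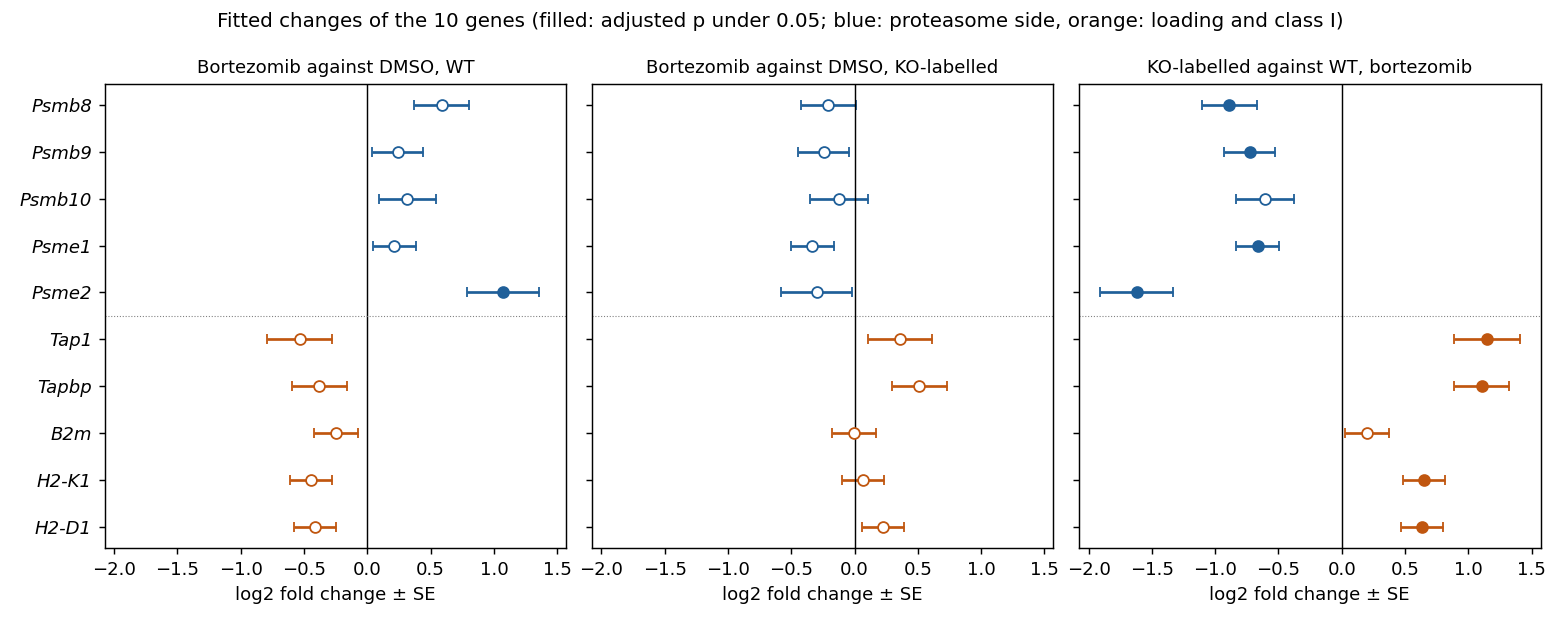
Log2 fold changes ± SE of the 10 genes in 3 comparisons of the treatment experiment, with filled points for edgeR adjusted p under 0.05. The proteasome-side genes (blue) lie to the left and the loading and class I genes (orange) to the right of 0 in the comparison of genotypes under bortezomib.

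Fold changes between genotypes under bortezomib moved with transcript length over all genes. With genes in 4 bins of equal number by longest annotated transcript, the median log2 fold change was -0.377, -0.0242, 0.157 and 0.454 from the shortest to the longest bin (99.6% of tested genes had a length). In WT HSCs, bortezomib against DMSO gave 0.311, 0, -0.118 and -0.248 in these bins. The longest transcripts of B2m, Psme2 and Psmb10 hold 860, 962 and 1311 bases, those of H2-K1, Psmb8, Psme1 and H2-D1 1874, 1907, 1986 and 2102, and those of Psmb9, Tapbp and Tap1 2884, 2898 and 3911. With offsets for length and GC content in the fit, 12% of all genes were called higher and 18.5% lower between genotypes under bortezomib, in place of 17.2% and 15.3%. Psme2 stood at -1.41, Psmb9 at -0.91, Psmb8 at -0.88 and Psme1 at -0.69 (log2), each still called. Tapbp stood at 0.88, Tap1 at 0.78, H2-K1 at 0.67 and H2-D1 at 0.59, each still called, and Psmb10 at -0.49 (edgeR adjusted p = 0.0691). B2m, the shortest, moved from 0.20 to 0.66 and was called (edgeR adjusted p = 0.00783). The longest annotated transcript need not be the one expressed, and the part of length in these differences was not tested. In WT, the rise of Psme2 with bortezomib was 0.93 with these offsets (edgeR adjusted p = 0.0103).

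**Figure D3:**
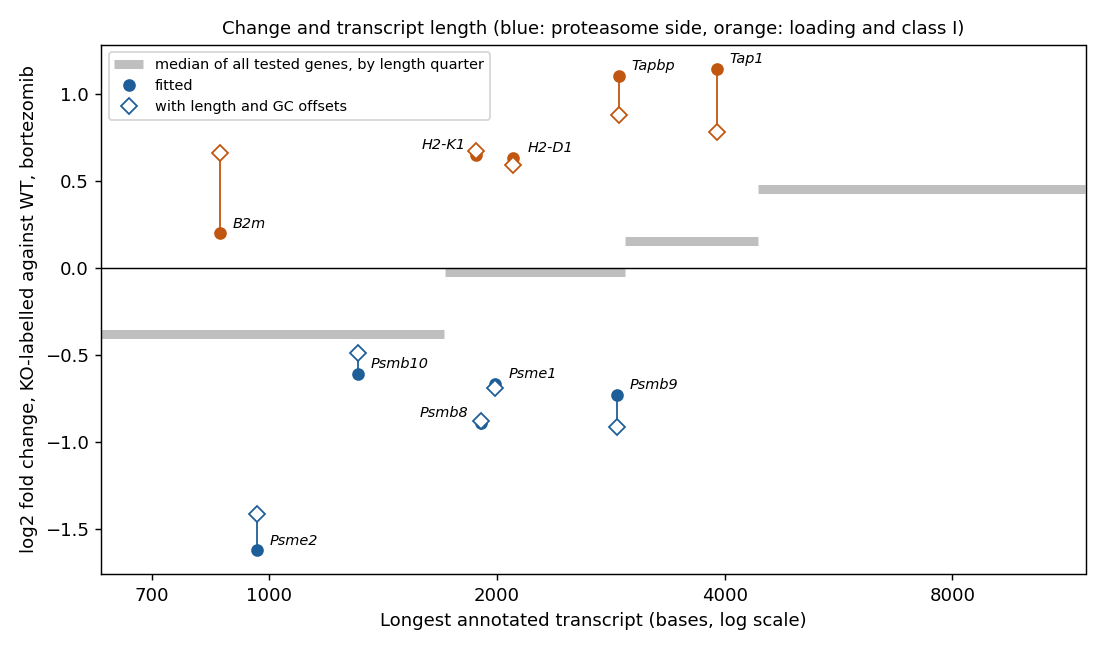
Log2 fold change between knockout-labelled and WT HSCs under bortezomib against the length of the longest annotated transcript (bases, log axis). Circles are fitted values, diamonds those with length and GC offsets, and grey bars the medians of all tested genes in each length bin; the split between proteasome side (blue) and loading and class I genes (orange) is present in both.

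Other cell types could carry these genes, and their markers were summed in the bortezomib libraries. The counts of markers called stand beside 17.2% of all genes tested called higher and 15.3% lower between genotypes under bortezomib. HSC markers stood at 2113 to 2504 CPM in WT and at 3044 to 3415 CPM in knockout-labelled libraries (7 of 12 markers called higher). Monocyte and macrophage markers stood at 625 to 895 and 304 to 662 CPM (10 markers, 4 of 9 tested called lower), and T and NK cell markers at 148 to 219 and 49.5 to 129 CPM (9 markers, 1 of 3 tested called lower). Erythroid markers summed to 167 to 206 and 45.3 to 66.7 CPM (9 markers), but the median log2 fold change over the 8 tested was 2.23, with 1 called higher and 1 lower, so the sum and the median went opposite ways. Cd3d, Cd3e, Cd3g, Cd8a and Gzma were at 0 in both groups. Class II presentation genes, 10 in all, stood at 526 to 639 and 630 to 1403 CPM. B cell markers stood at 69.8 to 91.4 and 64.9 to 96.5 CPM, with Ms4a1 and Pax5 at 0 in both. Dendritic cell markers stood at 168 to 283 and 207 to 232 CPM (8 markers, Siglech and Cd209a at 0), megakaryocyte markers at 469 to 607 and 464 to 763 CPM (7 markers, Gp6 at 0), and neutrophil markers at 20.6 to 56.6 and 6.17 to 24.0 CPM (9 markers, Ly6g at 0). Of those tested, 1 dendritic cell marker was called higher and 1 lower of 6, 2 megakaryocyte markers higher and 3 lower of 6, and 1 neutrophil marker lower of 7. Endothelial and stromal markers stood at 41.7 to 66.3 and 103 to 123 CPM (8 markers), and 3 of 5 tested were called higher (median 1.59). The part of other cells in the results was not tested, and in bulk libraries a different number of cells and a different amount of RNA per cell cannot be told apart.

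Bortezomib was then compared with DMSO within each genotype. In WT HSCs the Psme2 level rose from 232, 265 and 413 CPM after DMSO to 681, 641 and 596 CPM after bortezomib. The groups were well apart, and the log2 fold change was 1.08 (SE 0.28, edgeR adjusted p = 0.0206). Psme2 alone among the 10 genes was called, where 15.5% of all genes tested were called (7.97% higher and 7.56% lower). HSC markers moved in this comparison too, from 3503 to 3981 CPM after DMSO to 2113 to 2504 CPM after bortezomib (9 of 12 called lower, median -0.69), as did 2 of 5 tested endothelial and stromal markers, called lower. Erythroid markers summed to 62.9 to 86.3 CPM after DMSO and 167 to 206 CPM after bortezomib (1 of 8 tested called higher, 1 lower). T and NK cell markers summed to 87.0 to 92.7 and 148 to 219 CPM (1 of 3 called higher). Of monocyte and macrophage markers 1 of 9 was called higher, and of megakaryocyte markers 1 of 6 lower. No B cell, dendritic cell or neutrophil marker was called. The part of these differences in the results was not tested. An unadjusted p under 0.05 was reached by 4 of the 10 and by 30.5% of all genes. The Psme2 call was lost without WT DMSO replicate 1 (adjusted p = 0.0981) or 2 (0.0964), or without WT bortezomib replicate 1 (0.0765) or 2 (0.0541).

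Psmb8 stood at 409, 443 and 572 CPM in WT HSCs after DMSO and at 687, 638 and 813 CPM after bortezomib, as given above. The libraries did not overlap, but the log2 difference of 0.59 (SE 0.22) missed the threshold (edgeR adjusted p = 0.0795), which it passed in 7 of 14 alternatives. The log2 differences of Psmb10, Psmb9 and Psme1 were 0.32, 0.24 and 0.21, with adjusted p of 0.378 to 0.457. All 5 proteasome-side values were above 0 and all 5 of the other genes were below 0. H2-K1 stood at 2476, 2564 and 2249 CPM after DMSO, and all 3 libraries after bortezomib were lower (log2 difference -0.45, SE 0.17, edgeR adjusted p = 0.0798). H2-D1 stood at 2646, 2741 and 2511 CPM after DMSO, again without overlap (-0.41, SE 0.17, adjusted p = 0.107). Tap1 stood at 270, 255 and 222 CPM after DMSO, also without overlap (-0.53, SE 0.26, adjusted p = 0.172). Tapbp (-0.38) and B2m (-0.24) overlapped between treatments. In all, the libraries did not overlap for 5 genes, 2 higher and 3 lower, against 36.9% of all genes tested (19.3% higher and 17.7% lower). Without the 3 outlying libraries, 2 genes rose (Psme2 and Psmb8) and 2 fell (H2-K1 at -0.58 and H2-D1 at -0.50), where 12.8% of all genes rose and 11.3% fell.

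This comparison and that of the genotypes under bortezomib use the same WT bortezomib libraries, so their values are not independent of each other.

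In knockout-labelled HSCs none of the 10 genes was called between bortezomib and DMSO, where 3.63% of all genes tested were called in edgeR (2.02% higher and 1.61% lower) and 1 of the 10, Tapbp, had an unadjusted p under 0.05 (16.7% of all genes). DESeq2 also called none, where it called 1.47% of all genes of the count table higher and 1.22% lower. Psme2 stood at 265, 302 and 201 CPM after DMSO and at 166, 134 and 323 CPM after bortezomib, and the groups overlapped (log2 difference -0.30, SE 0.28, adjusted p = 0.683). Without the 3 outlying libraries, Psme2 fell by 0.76 (adjusted p = 0.0102). Tapbp stood at 667, 466 and 596 CPM after DMSO and at 1077, 660 and 725 CPM after bortezomib, with overlap (0.51, SE 0.22, adjusted p = 0.233). The other differences lay between -0.33 (Psme1) and 0.36 (Tap1), with adjusted p of 0.346 to 0.997. None of the 10 genes had groups without overlap, against 20.3% of all genes tested (10.6% higher and 9.73% lower).

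After DMSO, none of the 10 genes differed between genotypes in edgeR. No gene at all was called there (0% of genes tested), and 9% of genes and none of the 10 had an unadjusted p under 0.05. DESeq2 called none of the 10, where it called 0.23% of all genes of the count table higher and 0.142% lower. The log2 differences between knockout-labelled and WT HSCs lay between -0.24 (Psme2, SE 0.28) and 0.25 (Tap1, SE 0.26), with SE of 0.17 to 0.28 and adjusted p of 0.75 to 0.997. The libraries of the groups overlapped for all 10, while 18% of all genes tested had none (9.39% higher and 8.63% lower).

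The difference between the genotypes in their response to bortezomib was tested as an interaction. Psme2 was called with an interaction of -1.38 (log2, SE 0.40, edgeR adjusted p = 0.0442), alone among the 10, where 9.05% of all genes tested were called (4.35% higher and 4.71% lower). Of the 10 genes, 6 more had an unadjusted p under 0.05, as did 25.9% of all genes: Tapbp (0.89), Tap1 (0.89), H2-D1 (0.64), H2-K1 (0.51), Psme1 (-0.54) and Psmb8 (-0.79), with adjusted p of 0.0777 to 0.176. Psmb9 (-0.48), Psmb10 (-0.44) and B2m (0.24) had adjusted p of 0.305 to 0.595. The Psme2 call was lost with the Xist share as a covariate (-1.05, adjusted p = 0.192) and without any 1 of 9 of the 12 libraries (-1.42 to -1.14, adjusted p = 0.0519 to 0.121), the exceptions being WT DMSO replicate 3, knockout-labelled DMSO replicate 3 and knockout-labelled bortezomib replicate 3. Without the 3 outlying libraries, 4 genes were called lower (Psme2, Psmb8, Psmb10 and Psme1) and 4 higher (Tap1, Tapbp, H2-K1 and H2-D1). Of all genes, 12.9% were called lower and 11.5% higher in that fit.

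The immunoproteasome subunits were set against the constitutive subunits they replace, as ratios of counts within a library, which need no scaling between libraries. The constitutive subunits all rose with bortezomib in WT HSCs, Psmb6 by 1.13, Psmb5 by 1.13 and Psmb7 by 1.00 (log2, edgeR adjusted p = 0.00475, 0.00654 and 0.00475). In knockout-labelled HSCs Psmb7 rose by 0.77 (adjusted p = 0.03), while Psmb6 (0.66, adjusted p = 0.104) and Psmb5 (0.41) did not pass. Between genotypes under bortezomib, Psmb5 fell by 1.04 and Psmb6 by 0.80 (adjusted p = 0.00297 and 0.00896), and Psmb7 stood at -0.39. Whether Psmb8 or Psmb5 was the higher per kilobase depended on the length used. In WT bortezomib libraries Psmb8 stood at 211 ± 26.6 CPM per kilobase of all exons and at 374 ± 47.2 per kilobase of its longest transcript, while Psmb5 stood at 307 ± 24.6 by either.

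The log2 ratio of Psmb8 to Psmb5 counts in WT HSCs was 1.79, 2.04 and 1.91 after DMSO, against 1.27, 1.35 and 1.48 after bortezomib. It was 2.18, 1.98 and 2.31 in knockout-labelled DMSO and 1.82, 1.36 and 1.40 in knockout-labelled bortezomib. In both genotypes every bortezomib library was below every DMSO library. The mean difference over genotypes was -0.59 (two-sided exact permutation test within genotype, p = 0.005, the smallest that 400 relabellings allow, adjusted over 6 tests p = 0.015). The Psmb10 to Psmb7 ratio also had no overlap in either genotype, and its log2 differences were -0.70 in WT and -0.94 in knockout-labelled HSCs (mean -0.82, exact permutation p = 0.005, adjusted p = 0.015). The Psmb9 to Psmb6 ratio differed by -0.90 in WT, without overlap, and by -0.93 in knockout-labelled HSCs, where 1 bortezomib library at -0.53 lay above 1 DMSO library at -0.58 (mean -0.92, exact permutation p = 0.01, adjusted p = 0.02). Length differs within the pairs, since the longest transcripts of Psmb5, Psmb6 and Psmb7 hold 899, 966 and 2849 bases. As differences of fitted log2 fold changes in WT, the pairs stood at -0.54 (Psmb8 and Psmb5), -0.89 (Psmb9 and Psmb6) and -0.68 (Psmb10 and Psmb7). With length and GC offsets these were -0.33, -0.59 and -0.80. In knockout-labelled HSCs they were -0.62, -0.90 and -0.89, and with offsets -0.61, -0.87 and -0.81.

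Between genotypes within treatment the ratios differed by 0.20 (Psmb8 to Psmb5), 0.07 (Psmb9 to Psmb6) and -0.14 (Psmb10 to Psmb7) on the log2 scale. None passed the two-sided exact permutation test (p = 0.07, 0.745 and 0.32, adjusted p = 0.105, 0.745 and 0.384).

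**Figure D4:**
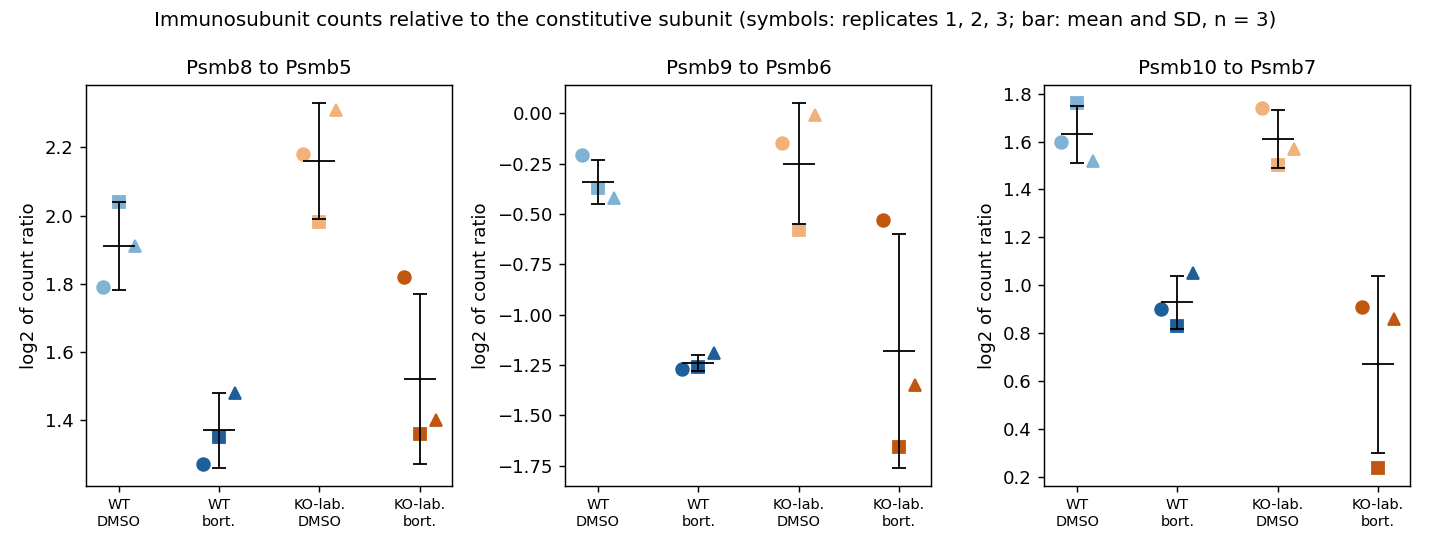
Log2 ratio of immunoproteasome subunit counts to counts of the constitutive subunit in the treatment experiment; symbols are the 3 libraries of a group and bars the mean and SD. Bortezomib libraries lie below DMSO libraries of their genotype, except that 1 knockout-labelled library overlaps for Psmb9 to Psmb6 (-0.53 against -0.58); the axes do not start at 0.

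The other genes of the pathway were taken as lists. Between genotypes under bortezomib, 12 of 13 transcription factors known to act on class I genes rose and none fell (median log2 fold change 1.07, beside 0.08 for all genes, of which 17.2% were called higher and 15.3% lower). Nlrc5, the class I transactivator, stood at 11.4, 11.7 and 8.996 CPM in the WT and at 44.6, 47.8 and 19.8 CPM in the knockout-labelled bortezomib libraries. All knockout-labelled libraries were higher, replicate 3 the least so (log2 fold change 1.80, SE 0.28, edgeR adjusted p = 0.000366). Irf1, an activator of interferon-inducible genes, stood at 92.5, 87.9 and 106 CPM in WT and at 412, 258 and 164 CPM in knockout-labelled HSCs, without overlap (1.54, SE 0.26, adjusted p = 0.000566). Stat2 (2.28) and Irf9 (0.89), which carry interferon signals to the nucleus, rose, as did Irf7 (2.21) and Irf2 (1.25), relatives of Irf1. The NF-kB subunits Rela (0.82) and Nfkb1 (0.72) and the regulatory factor X subunits Rfx5 (1.07), Rfxap (0.93) and Rfxank (0.80) rose too, with adjusted p of 0.000137 to 0.0196 over these 9 genes. Irf8 did not pass (0.52, adjusted p = 0.219). With length and GC offsets, 10 of 13 were called higher (median 0.91), as were 12% of all genes.

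In WT HSCs, 5 of the 13 factors fell with bortezomib and none rose (median -0.75, beside -0.04 for all genes, of which 7.56% were called lower). In the same comparison 9 of 12 HSC markers were called lower (median -0.69). Irf2 went from 181, 164 and 160 CPM after DMSO to 61.9, 62.7 and 68.5 CPM after bortezomib, with every bortezomib library far below (log2 fold change -1.39, SE 0.16, edgeR adjusted p = 0.00193). Stat2 (-1.11), Irf1 (-1.09), Nlrc5 (-1.08) and Irf9 (-0.81) also fell, with adjusted p of 0.0127 to 0.0301. In knockout-labelled HSCs none of the 13 was called between bortezomib and DMSO (edgeR, median 0.11), and none had an unadjusted p under 0.05. After DMSO none was called between genotypes, but 3 had an unadjusted p under 0.05, against 9% of all genes. The knockout-labelled DMSO libraries were above the WT ones without overlap for 6 of the 13, against 9.39% of all genes (median 0.24). In the interaction, Irf2 (1.13), Irf1 (1.34) and Stat2 (1.52) were called (adjusted p = 0.0101, 0.0338 and 0.0466). Without the 3 outlying libraries, 13 of 13 were called higher between genotypes under bortezomib (20.3% of all genes) and 10 of 13 lower in WT (11.3% of all genes). With the Xist share as a covariate, 3 of 13 were called lower in WT (4.94% of all genes).

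Among interferon receptors and kinases, 5 of 7 rose between genotypes under bortezomib, where 17.2% of all genes did, and none fell: Jak2 (1.24), Ifnar1 (0.95), Ifngr1 (0.74), Jak1 (0.63) and Ifnar2 (0.52), with adjusted p of 0.00141 to 0.014. With length and GC offsets 3 were called (median 0.35 in place of 0.63). In WT HSCs, Jak2 (-0.91), Jak1 (-0.73) and Ifngr1 (-0.58) fell with bortezomib (adjusted p = 0.0206, 0.0152 and 0.0179), and in the interaction Ifngr1 was called (0.75, adjusted p = 0.0388).

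The other genes of class I loading were split. Of 7, Tapbpl (1.00), a tapasin relative, Tap2 (0.92), the partner of Tap1 in the transporter, and Erap1 (0.51), which trims peptides, rose between genotypes under bortezomib. Calr (-0.93) and Pdia3 (-0.78), a chaperone and an oxidoreductase of the loading complex that also serve other proteins of the endoplasmic reticulum, fell. Adjusted p were 0.000537 to 0.0242 over these 5 genes, and 17.2% of all genes tested were called higher and 15.3% lower. The list median was 0.38, and -0.13 with length and GC offsets. After DMSO, Calr stood at 482 to 633 CPM in knockout-labelled and 699 to 850 CPM in WT libraries. Pdia3 stood at 483 to 792 and 919.5 to 1058 CPM there. These 2 of the 7 were lower without overlap after DMSO, as were 8.63% of all genes tested, but neither was called. In WT HSCs, Tap2 (-0.66) and Tapbpl (-0.65) fell and Calr (0.49) rose with bortezomib (adjusted p = 0.0246, 0.042 and 0.044). Of all genes tested in that comparison, 7.56% fell and 7.97% rose. None of the 7 was called with the Xist share as a covariate. Tapbpl was called in the interaction (1.00, adjusted p = 0.0417). Psme3, the subunit of another proteasome activator, was the only called gene of the 4 further proteasome regulators, at 0.71 with bortezomib in WT (adjusted p = 0.0205) and -0.67 between genotypes under bortezomib (adjusted p = 0.0125).

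Of 14 nonclassical class I genes, 12 were tested, 5 rose between genotypes under bortezomib and none fell (median 0.69), beside 17.2% of all genes called higher and 15.3% lower. H2-Q4 (2.41), H2-Q6 (1.77), Mr1 (1.29), H2-T23 (0.70) and Cd1d1 (0.67) were called, with adjusted p of 0.000333 to 0.044. In WT HSCs, H2-Q6 (-1.55) and H2-Q4 (-1.42) fell with bortezomib (adjusted p = 0.00405 and 0.034). H2-Q4 was low, at 7.035 to 8.186 CPM after DMSO and 1.789 to 4.428 CPM after bortezomib. H2-Q7 overlapped, at 339.9 to 397.2 and 333.5 to 398.5 CPM. Reads of these similar genes may have been split or dropped. In the interaction, H2-Q4 (1.99), H2-Q6 (1.97) and Cd1d1 (0.98) were called (adjusted p = 0.046, 0.0095 and 0.0376). Of 10 class II presentation genes, Cd74 (1.88) and Ctss (1.79) rose between genotypes under bortezomib and none fell (median 0.31). This is near the 17.2% of all genes called higher there. Among these class II genes, Ctss alone rose with bortezomib in knockout-labelled HSCs (1.64, edgeR adjusted p = 0.00134), where 2.02% of all genes were called higher. Ctss alone was also called in the interaction (1.26, edgeR adjusted p = 0.029), where 4.35% of all genes were called higher. No gene of these pathway lists was called in edgeR between genotypes after DMSO or in the reporter experiment.

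Over the 12 treatment libraries, log2 CPM of the 5 proteasome-side genes moved together, with Pearson's r of 0.84 (Psmb9 and Psme2) to 0.97 (Psmb8 and Psmb10). Tap1, Tapbp, H2-K1 and H2-D1 had r of 0.89 to 0.96 among themselves and of -0.44 to -0.90 with the proteasome-side genes. B2m had r of 0.39 to 0.58 with its own side and of -0.29 to 0.07 with the proteasome side. These values describe 12 libraries that share the differences between the 4 groups. By the same measure, the genes outside the 10 most like Psmb8 were Tram1 (0.98), Abhd17a, Emp3, Egfl7 and Slc35b2 (0.97 each). Most like H2-K1 were Tpp1 and Slc25a24 (0.97 each), Snx4, Acpp and Fndc3a (0.96 each). Most like B2m were Ksr1 (0.90), Lor (0.88), Lysmd1 and Tceanc (0.86 each).

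In the reporter experiment none of the 10 genes was called in edgeR in any of the 3 comparisons, where 0%, 0% and 0.0065% of genes tested were called (RFP single positive against double positive, RFP single positive against double negative, and double positive against double negative). DESeq2 called none of the 10 either. In the same order, it called 0.0021%, 0.0629% and 0.13% of all genes of the count table higher and 0.0021%, 0.0105% and 0.067% lower. Psme2 stood at 353, 254 and 353 CPM in RFP single positive, at 338, 352 and 259 CPM in double positive, and at 544, 546 and 359 CPM in double negative HSCs. Every double negative library was above every library of the other groups, replicate 3 by a narrow margin. The log2 differences were -0.59 (SE 0.21, unadjusted p = 0.0165, edgeR adjusted p = 0.651) for RFP single positive and -0.61 (SE 0.21, unadjusted p = 0.014, adjusted p = 0.555) for double positive against double negative. Both comparisons share the double negative libraries. HSC markers summed to 2242 to 3325 CPM in double negative, 3173 to 3661 CPM in RFP single positive and 2914 to 3823 CPM in double positive libraries. None of the 12 was called. Against double negative, 5 of 12 were higher without overlap in RFP single positive (7.64% of all genes) and 0 in double positive (6.28%). The part of this in the Psme2 values was not tested. The medians of all genes in the 4 length bins were -0.295, -0.0243, 0.104 and 0.277 for RFP single positive and -0.173, -0.0394, 0.0725 and 0.223 for double positive against double negative, and with length and GC offsets Psme2 stood at -0.48 and -0.55 (adjusted p = 0.568 and 0.433). Psme2 alone among the 10 had an unadjusted p under 0.05, as had 7.54% and 8.55% of all genes. It alone had no overlap between groups, as had 13.2% of all genes for RFP single positive (7.64% higher and 5.52% lower) and 11.2% for double positive (6.28% higher and 4.94% lower). Between RFP single positive and double positive HSCs, the 10 log2 differences lay between -0.08 and 0.12, none had an unadjusted p under 0.05 (1.36% of all genes) and the groups overlapped for all 10 (7.36% of all genes did not, 3.84% higher and 3.51% lower).

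Tap1 stood at 174, 176 and 330 CPM in the double negative libraries, so that replicates 1 and 2 were low and replicate 3 was like the other groups (229 to 336 CPM). B2m ranged from 5079 to 8640 CPM in double negative and from 6475 to 8144 CPM in the other libraries, H2-K1 from 1959 to 3396 and H2-D1 from 2118 to 3306 CPM over all 9. Psmb8 stood at 573 to 862, Psmb9 at 318 to 534, Psmb10 at 233 to 396, Psme1 at 401 to 616 and Tapbp at 388 to 672 CPM over the 9 libraries, with overlap between all groups. Double negative replicate 1 (118.1 on the first component), double positive replicate 2 (95.3 on the second) and double positive replicate 1 (-95.6 on the third) stood apart from the other reporter libraries. Calls of the 10 genes stayed at 0 when each library was left out, where at most 0.037% of all genes were called higher and 0.00617% lower. The share of Xist followed the replicate number across the sorted groups: 0%, 0% and 10.2% in the replicates numbered 1, 99.9%, 97.4% and 88.1% in those numbered 2, and 5.45%, 0.782% and 0% in those numbered 3. Whether libraries of one number came from the same animals is not stated in the labels. With the replicate number as a block, the Psme2 differences were -0.57 and -0.60 (adjusted p = 0.303 and 0.308).

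**Figure D5:**
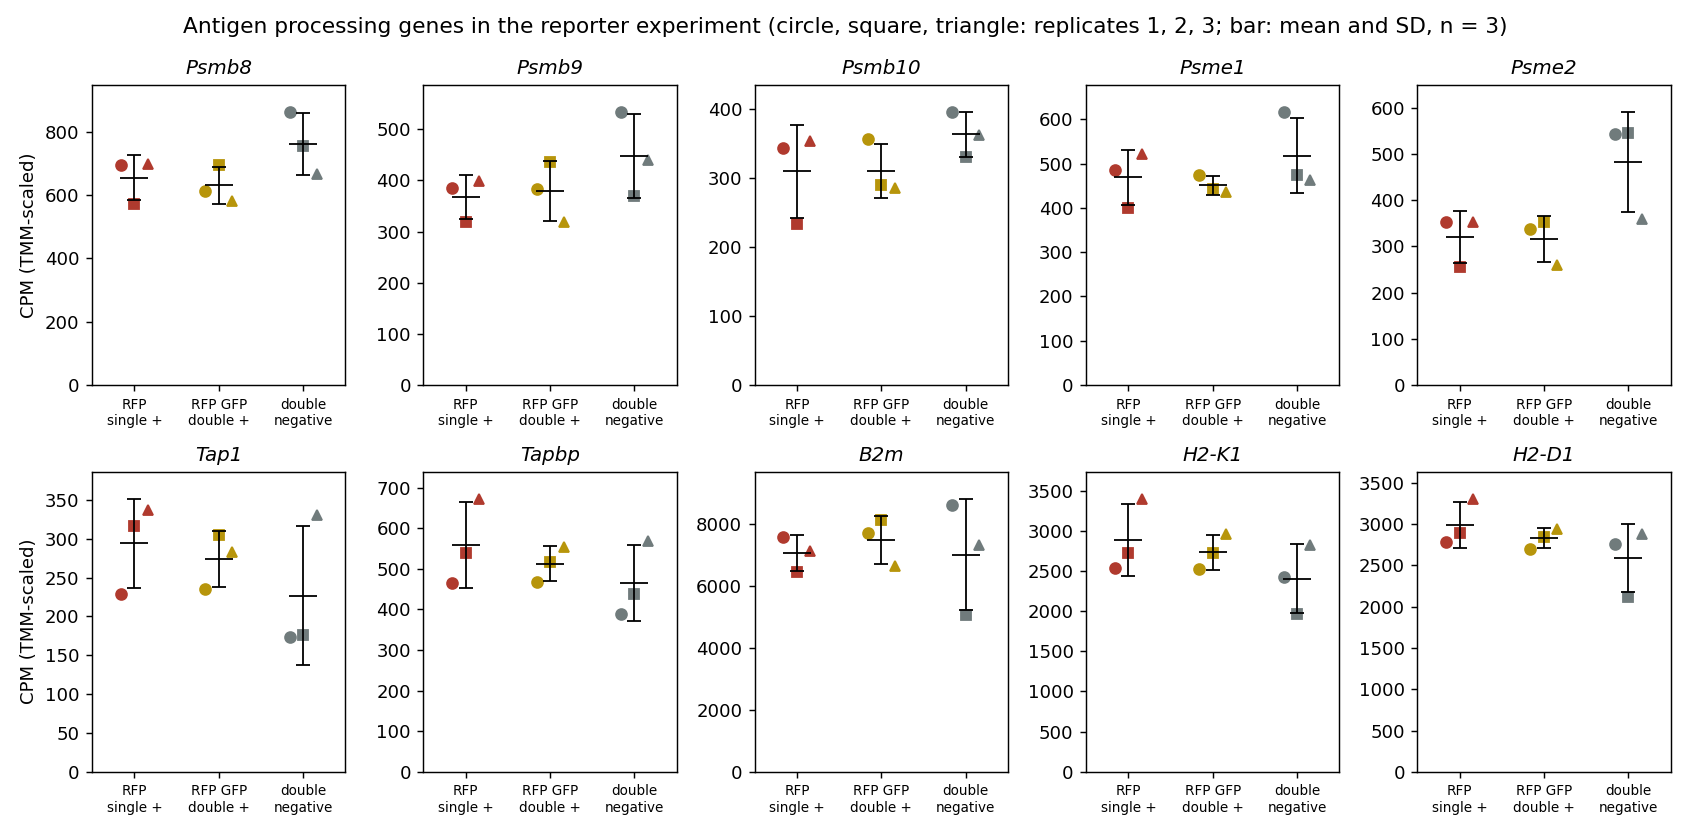
Levels of the 10 genes in the reporter experiment, in CPM on a linear axis from 0, for RFP single positive, RFP GFP double positive and double negative HSCs; symbols are the 3 libraries and bars the mean and SD. Groups overlap for all genes except Psme2, which is highest in the double negative libraries (359 to 546 CPM).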

How the data were processed

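The authors deposited raw counts per gene for 21 libraries, a unit that was checked on the values. Per the submitters' processing notes, Bowtie 1.0.0, STAR 2.6.1 and HTSeq 0.7.1 were used and the builds GRCm38.p4 and GRCh38 are named without a role. Which annotation and strand option HTSeq was run with is not given in the sources used here. SMART-seq2 counts hold no molecular identifiers, so depth gives counting precision only, and 3 counts correspond to 0.0953 to 0.2 CPM.

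Counts were fitted with edgeR 4.0.16 in R 4.3.3 (filterByExpr, TMM, a mean per group, quasi-likelihood test), 1 fit per experiment, and p was adjusted over all genes tested. SE is the fitted log2 fold change divided by the root of its F value. Subunit ratios are log2 of counts plus 0.5 and were tested by exact permutation within strata. Every one of the 10 genes is reported in every comparison, and of the pathway lists every called gene in the comparisons discussed. The 5 genes with the highest Pearson correlation are named for Psmb8, H2-K1 and B2m, and 2 genes that these rules name are not reported here. The 10 genes and the lists were chosen with earlier results of these data known. The procedure was tested on simulated data.

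Alternatives were relative log expression size factors, no filter, the DESeq2 1.42.0 Wald test, only the groups compared, a replicate block, no pseudocount, and leaving out each library. The Xist covariate, length and GC offsets (splines of 4 degrees of freedom), leaving out 3 libraries together and levels per longest transcript were chosen after seeing the data. Within groups, libraries differed by more than sampling noise, so none was merged. GENCODE M21 gave coordinates and lengths.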

Additional observations from a re-analysis of the deposited data

Results flagged for a closer look

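The response of Psme2 to bortezomib differed between genotypes by a test of the difference itself: the interaction was -1.38 on the log2 scale (SE 0.40, edgeR quasi-likelihood test, adjusted p = 0.0442), with a log2 fold change of 1.08 in WT and -0.30 in knockout-labelled HSCs. Over 19 alternatives it lay between -2.22 and -1.05, with adjusted p of 3.69e-05 to 0.192, and was called in 9.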

How the results depend on the processing

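With bortezomib in WT HSCs, 2 genes were called higher without a filter, with the replicate block, with length and GC offsets, with DESeq2, with only the groups compared and without the 3 outlying libraries, and 0 to 2 when a library was left out. Of all genes, 3.77% (DESeq2) to 12.8% (without the 3 outlying libraries) were called higher in these settings, and 1.66% to 8.07% with a library left out. DESeq2 shares are of all 47729 genes of the count table. Called lower were 1 without a filter, with offsets, with DESeq2 and with only the groups compared, 2 without the 3 outlying libraries, and 0 to 1 when a library was left out. Of all genes, 3.68% (DESeq2) to 11.3% (without the 3 outlying libraries) were called lower in these settings, and 1.81% to 8.3% with a library left out. In knockout-labelled HSCs 1 was called lower without the 3 outlying libraries (6.2% of all genes). In the interaction, 2 were called higher without a filter (4.78% of all genes) and with DESeq2 (2.62%), 4 without the 3 outlying libraries (11.5%), and 0 to 3 when a library was left out (1.09% to 7.29%). Called lower there were 0 with the Xist share (0.774%), 2 with offsets (8.48%), 4 without the 3 outlying libraries (12.9%), and 0 to 3 when a library was left out (0.977% to 9.42%). The cause was not tested. Counts between genotypes under bortezomib stayed at 3 to 5 higher and 4 to 5 lower in all alternatives, where 6.58% to 20.3% of all genes were called higher and 6.06% to 19% lower. Those in the reporter experiment and between genotypes after DMSO stayed at 0. Between genotypes after DMSO, at most 0.512% of all genes were called higher and 0.244% lower (no filter). In the reporter experiment at most 0.13% were called higher and 0.067% lower (DESeq2).

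Differences near 0 with bortezomib in knockout-labelled HSCs changed sign when 1 library was left out, over ranges of -0.43 to 0.03 for Psmb8 and -0.38 to 0.12 for Psmb10 (above 0 without bortezomib replicate 2), -0.10 to 0.63 for Tap1 (below 0 without bortezomib replicate 1) and -0.04 to 0.16 for H2-K1 (below 0 without DMSO replicate 2 and, at -0.02, without bortezomib replicate 1). B2m, at -0.004 as reported, stood at 0.10 without DMSO replicate 3 and at 0.06 without bortezomib replicate 2. With the Xist share, Tap1 stood at -0.02 and H2-K1 at -0.05. B2m stood at 0.00 with relative log expression factors, no filter, DESeq2 and only the groups compared. Of the ratios between genotypes, Psmb8 to Psmb5 ranged from 0.13 to 0.25 when a library was left out, with exact permutation p = 0.035 without knockout-labelled DMSO replicate 2 and p = 0.045 (0.24) without bortezomib replicate 2. Psmb9 to Psmb6 ranged from -0.09, without knockout-labelled bortezomib replicate 1, to 0.19.

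The labels do not pair same-numbered libraries, and their deviations correlated at -0.0282 to 0.0995 in the treatment experiment and -0.0143 to 0.165 in the reporter experiment, where the share of Xist did follow the number. With the replicate block B2m in knockout-labelled HSCs stood at 0.01, Psmb8 was called in WT (0.59, adjusted p = 0.0448) and Psmb10 between genotypes (-0.64, adjusted p = 0.0231), and no other call of the 10 genes changed in either experiment.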
